A study of Homo sapiens with 8 samples.

Results

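The mammalian circadian clock was represented here by 10 genes chosen by name: the period and cryptochrome repressors PER2, PER3, CRY1 and CRY2, the REV-ERB nuclear receptor NR1D2, the PAR bZIP factors DBP, TEF and HLF, and the DEC factors BHLHE40 and BHLHE41. These genes, and the gene lists used further on, were chosen with earlier results of these data known. They are 10 of the 19775 genes that had a probe set of their own, and 25 of the 54613 probe sets tested carried one of their symbols alone. A probe set is the group of short oligonucleotides on the array that reads 1 stretch of a transcript. Each gene was described first at its brightest probe set, the one with the highest mean log2 level over all arrays, and its other probe sets served as a check.

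RNA of 4 groups was hybridised to Affymetrix U133 Plus 2.0 arrays, 2 arrays per group and 8 in all. MCF-10F is a spontaneously immortalised, normal-like human breast epithelial line that lacks estrogen receptor, progesterone receptor and HER2. trMCF cells are MCF-10F cells transformed in culture with a high dose of estradiol, and trMCF clone 11 was expanded from a single ring-cloned colony that formed spherical masses in collagen, so it stands for 1 clone. The remaining groups were trMCF clone 11 cells kept for 26 days in all-trans retinoic acid (ATRA) at 1 μM or 10 μM, with the medium replaced daily. ATRA is the vitamin A metabolite that binds the retinoic acid receptors. The treatment protocol names 0.1% DMSO as vehicle control, but the labels do not say whether the trMCF clone 11 arrays came from vehicle-treated cells. Neither the hour of harvest nor the origin of replicate arrays in separate cultures is given, so the p-values below measure the spread between arrays, which may be technical. The disease-state label of trMCF clone 11 replicate 1 reads normal, against its title, and the array was grouped by its title.

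In the clock, the CLOCK and BMAL1 proteins pair on E-box sequences and switch on PER and CRY genes, whose proteins then return to block CLOCK and BMAL1. A second loop runs through REV-ERB receptors such as NR1D2, which repress genes with ROR elements, and an output arm runs through the PAR bZIP factors, which activate genes at D-box sequences. BHLHE40 and BHLHE41 repress at E-boxes, and the mouse counterpart of BHLHE40 was first named Stra13 because retinoic acid induced it in embryonal carcinoma cells. In cultured cells, glucocorticoids and fresh serum set the phase of this oscillator, and the culture medium of these lines held hydrocortisone and horse serum. With the hour of harvest not given, each array shows the level of a transcript and no phase.

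The promoters of the 5 members that passed the test at any of their probe sets are shown first. The calls below rest on the array signals alone and not on these promoters. Each window runs from 250 bases before to 50 bases after an annotated start, 300 bases in all, from RefSeq on build GRCh38.p14, read 5′ to 3′ on the strand of the gene. The windows are chr1:7784041-7784340 (plus strand) for PER3, chr12:107093500-107093799 (minus strand) for CRY1, chr3:23945871-23946170 (plus strand) for NR1D2, chr19:48637330-48637629 (minus strand) for DBP and chr3:4979187-4979486 (plus strand) for BHLHE40. Capitals mark matches, on either strand, to the E-box CACGTG, the related letters CACGTT, the D-box TTATGTAA or TTACGTAA, and the ROR element core TAGGTCA or TGGGTCA. PER3 and NR1D2 had 2 annotated starts each, and the window with the most matches is shown. The other window of each held no match.
PER3: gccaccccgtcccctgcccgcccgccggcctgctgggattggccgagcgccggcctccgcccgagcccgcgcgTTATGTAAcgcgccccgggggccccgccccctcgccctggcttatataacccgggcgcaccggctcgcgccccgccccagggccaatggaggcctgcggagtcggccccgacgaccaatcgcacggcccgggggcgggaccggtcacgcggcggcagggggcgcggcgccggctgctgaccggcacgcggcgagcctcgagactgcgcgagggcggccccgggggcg
CRY1: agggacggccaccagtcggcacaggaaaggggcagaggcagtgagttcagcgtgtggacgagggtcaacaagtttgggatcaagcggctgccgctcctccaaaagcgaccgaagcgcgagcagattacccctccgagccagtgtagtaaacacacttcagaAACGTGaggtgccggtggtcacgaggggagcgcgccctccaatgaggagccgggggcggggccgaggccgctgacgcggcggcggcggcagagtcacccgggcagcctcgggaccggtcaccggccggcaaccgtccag
NR1D2: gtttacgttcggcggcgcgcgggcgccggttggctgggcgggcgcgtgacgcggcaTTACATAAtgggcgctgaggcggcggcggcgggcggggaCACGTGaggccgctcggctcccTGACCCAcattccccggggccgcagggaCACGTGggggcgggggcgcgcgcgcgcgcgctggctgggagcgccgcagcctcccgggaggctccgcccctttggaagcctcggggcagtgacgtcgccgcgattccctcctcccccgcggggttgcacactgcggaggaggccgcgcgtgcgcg
DBP: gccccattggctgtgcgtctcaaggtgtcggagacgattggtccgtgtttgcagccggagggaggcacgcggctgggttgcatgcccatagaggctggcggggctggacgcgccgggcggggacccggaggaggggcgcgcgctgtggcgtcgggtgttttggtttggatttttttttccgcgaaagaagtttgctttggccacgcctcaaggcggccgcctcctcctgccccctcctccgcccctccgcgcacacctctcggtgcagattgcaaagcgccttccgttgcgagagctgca
BHLHE40: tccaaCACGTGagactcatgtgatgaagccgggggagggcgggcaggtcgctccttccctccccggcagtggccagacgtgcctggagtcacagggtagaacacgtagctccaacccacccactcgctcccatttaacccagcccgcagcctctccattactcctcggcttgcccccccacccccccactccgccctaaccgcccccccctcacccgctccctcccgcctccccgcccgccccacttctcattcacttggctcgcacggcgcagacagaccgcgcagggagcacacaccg

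The NR1D2 window held the most matches of these 5, with E-boxes starting 155 and 105 bases before the start, a D-box match 194 bases before it and a ROR element core between the E-boxes. The PER3 window had a D-box match 177 bases before the start, the CRY1 window had CACGTT 89 bases before it, the BHLHE40 window had an E-box 245 bases before it, and the DBP window had none of these letters. Over all 15 windows of the 10 genes, 5 held CACGTG, against 7.26% of the 35116 promoter windows of the table, and 3 held a D-box match, against 1.01%. CACGTT was in 3 of the 15 windows, against 5.34%, and the ROR element core was in 2, against 5.69%. The E-box genes were NR1D2, TEF, BHLHE40 and BHLHE41, the D-box genes were PER2, PER3 and NR1D2, and none of the matches in the windows shared bases with another. The direct repeat with a 5-base spacer that retinoic acid receptors bind, in its AGGTCA or AGTTCA form on either strand, was in none of the 15 windows and in 0.0171% of all. CACGTG was in 2 windows of TEF, and windows of 1 gene are not independent. The 10 genes were chosen by name as clock genes, so no excess is read from these shares. A match is a description of the letters, and no match says only that these letters are not in this window.

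The arrays were alike in scale, with median signals between 47.3 and 48.8, and between 21.5% and 23.7% of the signals lay under 16. Replicates were not equally close. The 2 arrays of trMCF clone 11 differed by more than 2-fold in 7.71% of probe sets, the 1 μM arrays in 0.126%, the 10 μM arrays in 0.211% and the MCF-10F arrays in 3.48%. Among the 10 clock genes, 4 differed by more than 2-fold between the trMCF clone 11 arrays, 0 between the arrays of either ATRA dose and 2 between the MCF-10F arrays. Of the 10 mammary epithelial markers listed, 8 had a probe set of their own, and none of these was under 16 in any group. Their summed signal was 40615 to 40837 in trMCF clone 11, 30096 to 31864 at 1 μM, 27359 to 27965 at 10 μM and 37344 to 54121 in MCF-10F. Against MCF-10F, 2 of the 8 were called lower after 10 μM ATRA, where 1.8% of all probe sets were called in either direction. After 10 μM ATRA against trMCF clone 11, where 2.98% of all probe sets were called lower and 3.22% higher, 2 of the 8 fell and 0 rose. These were KRT14, a basal keratin, with a log2 signal of 11.66 and 12.15 in trMCF clone 11, 7.73 and 6.86 at 1 μM, 5.40 and 5.09 at 10 μM, and 13.16 and 10.38 in MCF-10F (−6.66 at 10 μM, limma, adjusted p = 0.00836), and ITGA6, a basal integrin, at −1.05 (adjusted p = 0.0194). The summed signal of 9 fibroblast markers was 854 to 1056 in trMCF clone 11, 506 to 560 at 1 μM, 466 to 494 at 10 μM and 2343 to 3397 in MCF-10F, with 2, 1, 0 and 1 of the markers under 16. Of the 9, 3 (COL1A2, DCN and FAP) were called lower in trMCF clone 11 than in MCF-10F, against 2% of all probe sets. After 10 μM ATRA against trMCF clone 11, 2 were called lower and 1 higher, against 2.98% and 3.22% of all. Against MCF-10F, 2 were called lower after 1 μM and 3 after 10 μM ATRA, where 0.396% and 1.8% of all were called in either direction. The summed signal of 7 leukocyte and endothelial markers was 570 to 584 in trMCF clone 11, 1340 to 1429 at 1 μM, 1639 to 2081 at 10 μM and 374 to 1684 in MCF-10F, with 2, 1, 1 and 1 of them under 16. None of the 7 was called in any comparison. CD14 had signals of 149 and 108 in trMCF clone 11, 572 and 661 at 10 μM, and 49 and 402 in MCF-10F. PECAM1 had 132 and 267 in trMCF clone 11, 821 and 1183 at 10 μM, and 106 and 1063 in MCF-10F. Both genes were thus far apart between the 2 MCF-10F arrays. The other markers of that list differed less between trMCF clone 11 and 10 μM. The part of these markers in the differences below was not tested, and fewer cells of a type and less RNA per cell cannot be told apart in such samples.

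Across the 4 groups, NR1D2 set trMCF clone 11 apart, with both arrays above all others at each of its 2 probe sets. It stood higher in trMCF clone 11 than in MCF-10F and lower again after ATRA, by 1.93 and, at 10 μM, −1.48 on the log2 scale at its brightest probe set. CRY1 ran the other way, with its lowest levels in trMCF clone 11 and a rise of 3.09 after 10 μM ATRA. DBP and PER3 followed the direction of NR1D2 at 1 probe set each and showed smaller differences at their brightest. That probe set was dimmer than the brightest by its mean over all arrays, but not in trMCF clone 11. DBP and PER3 are also in the list of ATRA-reversed genes that the study chose on these same arrays, as are PER1 and, of the genes named further on, TSC22D3, ZNRF1 and MAPT, so their direction here is not independent evidence.

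**Figure D1:**
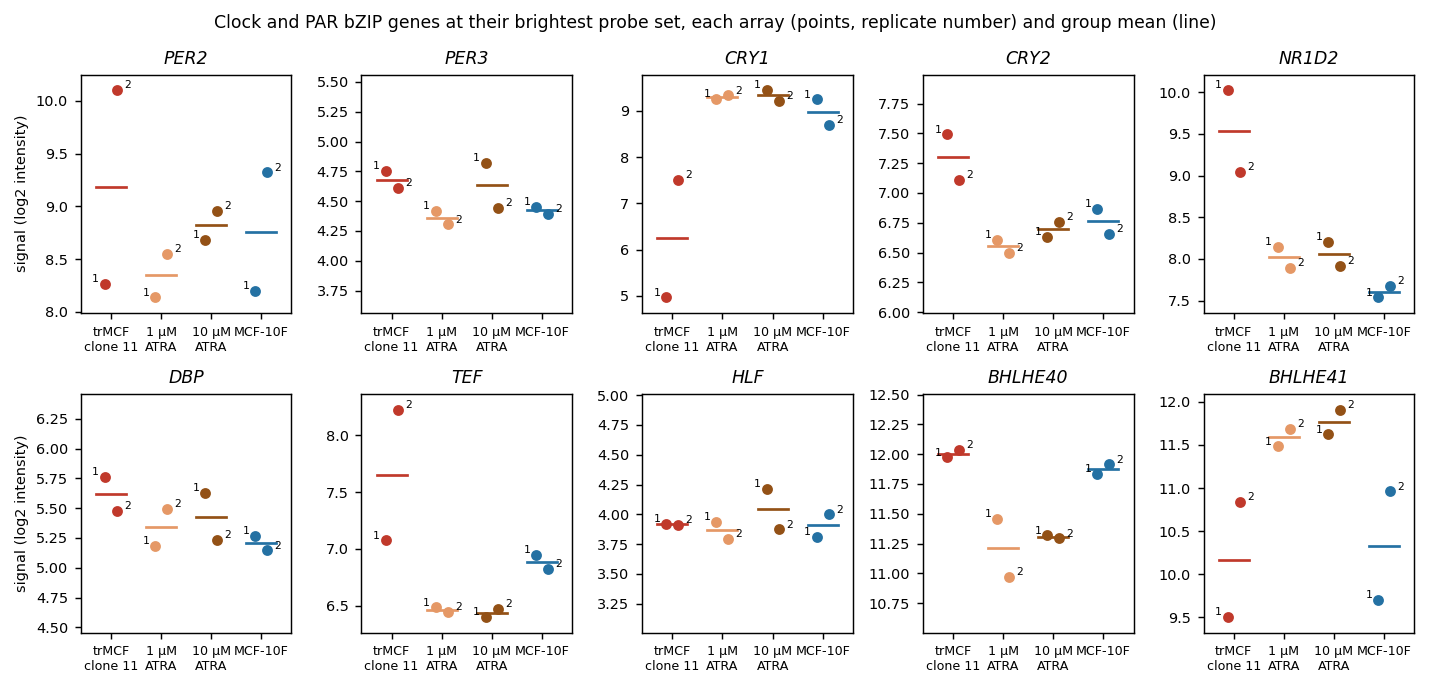
Level of each of the 10 genes at its brightest probe set, as log2 of the signal intensity on the vertical axis, for trMCF clone 11, trMCF clone 11 in 1 μM and 10 μM ATRA, and MCF-10F. Points are single arrays, numbered by replicate, and lines are group means. The NR1D2 points of trMCF clone 11 lie above all other groups at 9.05 and 10.03, and its CRY1 points lie below all others at 4.97 and 7.52. Each panel has its own vertical scale.

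In the comparison of trMCF clone 11 with MCF-10F, 1 of the 10 genes was called higher and 0 lower at an adjusted p under 0.05 (limma over 54613 probe sets, Benjamini-Hochberg), where 1.56% of all probe sets were called higher and 2% lower. At an unadjusted p under 0.05, 3 of the 10 passed, against 19.9% of all probe sets. The groups did not overlap for 7 of the 10, of which 6 were higher and 1 lower in trMCF clone 11, against 26.7% and 19.5% of all probe sets. By the methods' rule of a fold of at least 2 and an unadjusted p under 0.05, 2 of the 10 passed, against 7.74%. The median difference of the 10 genes was 0.34 on the log2 scale, against 0.06 over all probe sets. Here and in the counts below, each gene is read at its brightest probe set, while the shares cover all 54613 probe sets. Dim and unnamed probe sets are among these, so the bases are unlike and no excess is read from them.

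After 1 μM ATRA, 0 of the 10 genes were called against trMCF clone 11 in limma, where 0.866% of all probe sets were called higher and 0.683% lower. At an unadjusted p under 0.05, 6 of the 10 passed, against 18.7% of all. The groups did not overlap for 2 genes that were higher and 5 that were lower after 1 μM ATRA, against 22.9% and 28.7% of all probe sets. A fold of at least 2 with an unadjusted p under 0.05 was reached by 4 of the 10, against 6.77%. The median difference was −0.53, against −0.05 over all probe sets.

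After 10 μM ATRA, 1 of the 10 genes rose (CRY1) and 1 fell (NR1D2) against trMCF clone 11, where 3.22% of all probe sets were called higher and 2.98% lower. At an unadjusted p under 0.05, 6 of the 10 passed, against 20.6% of all. Non-overlapping groups were seen for 2 genes that were higher and 4 that were lower after 10 μM ATRA, against 22.9% and 23% of all probe sets. A fold of at least 2 with an unadjusted p under 0.05 was again reached by 4 of the 10, against 7.13%. The median difference was −0.28, against −0.02 over all probe sets. Both ATRA comparisons, and that of trMCF clone 11 with MCF-10F, share the 2 arrays of trMCF clone 11. The 1 μM counts came from a fit of 6 arrays and the 10 μM counts from a fit of all 8, so they do not compare the doses.

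ATRA-treated cells were also set against MCF-10F. None of the 10 genes was called after 1 μM ATRA, where 0.396% of all probe sets were called in either direction, and none after 10 μM ATRA, where 1.8% were. At an unadjusted p under 0.05, 1 of the 10 passed at 1 μM and 2 at 10 μM, against 10.3% and 13.8% of all probe sets, and with a fold of at least 2 as well, 0 passed at 1 μM and 1 at 10 μM, against 2.79% and 3.41%. The groups did not overlap for 3 genes that were higher and 3 that were lower at 1 μM, against 25.2% and 21.8% of all probe sets, and for 2 that were higher and 2 that were lower at 10 μM, against 28.1% and 19.3%. The largest difference was that of BHLHE41, at 1.26 for 1 μM and 1.44 for 10 μM ATRA. Between 10 μM and 1 μM ATRA, 0 of 10 genes and 0% of all probe sets were called, and 0 of the 10 genes and 1.69% of all probe sets had an unadjusted p under 0.05 (0.0586% with a fold of at least 2 as well). The doses did not overlap for 3 genes that were higher and 0 that were lower at 10 μM, against 20.3% and 17.1% of all probe sets. The differences between the doses lay between −0.03 and 0.48 on the log2 scale over the 10 genes, with the upper end at PER2.

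NR1D2 encodes REV-ERBβ, a heme-binding receptor that represses genes carrying ROR elements, BMAL1 among its known targets. Its log2 signal at the brightest probe set was 10.03 and 9.05 in trMCF clone 11, 8.14 and 7.90 at 1 μM ATRA, 8.21 and 7.91 at 10 μM ATRA, and 7.54 and 7.68 in MCF-10F. Both trMCF clone 11 arrays lay above every other array, and the ATRA arrays lay above those of MCF-10F at both doses. The level was 1.93 ± 0.32 higher (log2 difference ± SE, 95% interval 1.13 to 2.73) in trMCF clone 11 than in MCF-10F, a 3.81-fold difference with an adjusted p of 0.0406 in limma. It was lower by 1.48 ± 0.30 after 10 μM ATRA than in trMCF clone 11 (limma, adjusted p = 0.0373). The 1 μM difference of −1.52 ± 0.32 did not pass (limma, adjusted p = 0.0838). That value came from a fit of 6 arrays and the 10 μM value from a fit of all 8. With all 8 arrays in the fit, NR1D2 was called at 1 μM too, so these outcomes do not compare the doses.

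The second NR1D2 probe set gave the same order of trMCF clone 11 against the ATRA groups with wider gaps. Its log2 signal was 9.71 and 9.19 in trMCF clone 11, 6.19 and 6.47 at 1 μM, 5.89 and 6.07 at 10 μM, and 6.50 and 7.66 in MCF-10F. Here the ATRA arrays lay below those of MCF-10F, the reverse of the brightest probe set, and neither probe set passed the test in ATRA-treated cells against MCF-10F. The differences were 2.37 for trMCF clone 11 against MCF-10F, −3.12 for 1 μM ATRA and −3.47 for 10 μM ATRA against trMCF clone 11, with adjusted p = 0.0415, 0.0363 and 0.00616 in limma. With 1 array left out at a time, the call of the second probe set after 10 μM ATRA held in 6 of 8 fits and was lost without either 10 μM array (adjusted p up to 0.0846, differences −3.73 to −3.22). Its call at 1 μM was lost without either 1 μM array or without trMCF clone 11 replicate 1 (adjusted p up to 0.362), and that against MCF-10F without either 1 μM array, MCF-10F replicate 1 or trMCF clone 11 replicate 1 (adjusted p up to 0.146). At the brightest probe set, the call against MCF-10F was lost without either MCF-10F array or either 1 μM array (adjusted p up to 0.184, differences 1.44 to 2.42 over all 6 fits). The call after 10 μM ATRA was lost without any 1 array of MCF-10F or of either ATRA dose (adjusted p up to 0.232, differences −1.96 to −0.99 over all 8 fits), and its direction was kept in every fit. Both calls of the brightest probe set were also lost with only the 4 arrays compared in the fit (adjusted p = 0.146 and 0.131) and with signals under 16 set to 16 (adjusted p = 0.165 and 0.135).

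**Figure D2:**
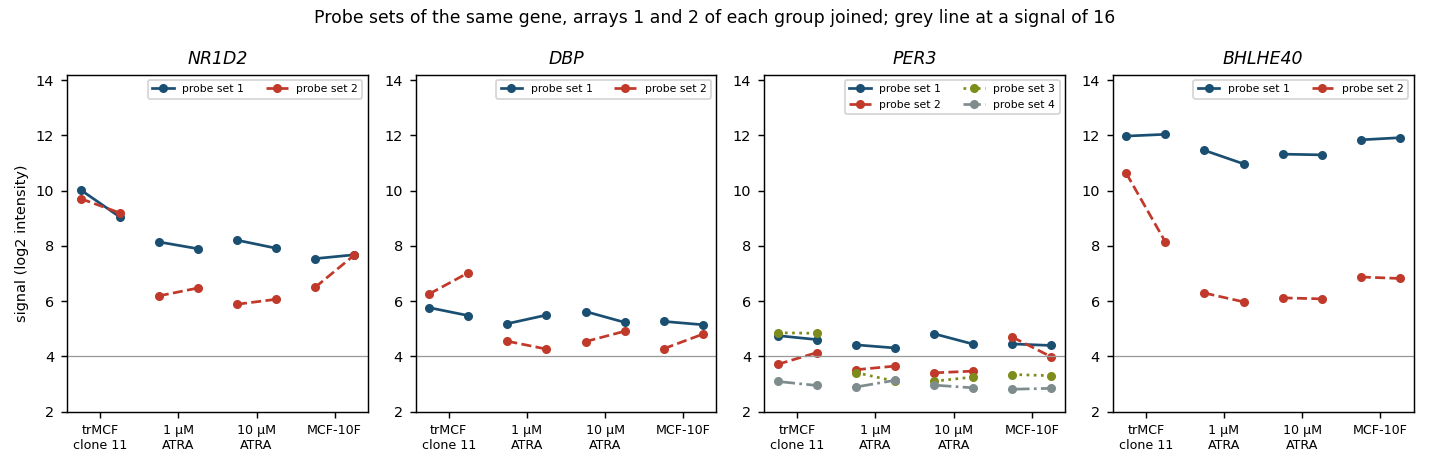
Log2 signal intensity (vertical axis) of every probe set of NR1D2, DBP, PER3 and BHLHE40, numbered from the brightest, with the 2 arrays of each group joined by a line and a grey line at a signal of 16. Probe set 2 of NR1D2, DBP and BHLHE40 and probe set 3 of PER3 stand highest in trMCF clone 11, while probe set 1 of DBP, PER3 and BHLHE40 varies less between groups.

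CRY1 encodes the cryptochrome that, bound to PER proteins, is the main repressor of CLOCK and BMAL1. Its 1 probe set had a log2 signal of 4.97 and 7.52 in trMCF clone 11, 9.26 and 9.33 at 1 μM, 9.45 and 9.22 at 10 μM, and 9.25 and 8.70 in MCF-10F. All 6 arrays of the other groups lay above both trMCF clone 11 arrays, which themselves were the farthest apart of any pair among the 10 genes. CRY1 rose by 3.09 ± 0.70 after 10 μM ATRA (8.53-fold, limma, adjusted p = 0.0483). The difference after 1 μM ATRA was 3.06 (adjusted p = 0.114), and trMCF clone 11 stood at −2.73 against MCF-10F (95% interval −4.62 to −0.84, adjusted p = 0.123). Without trMCF clone 11 replicate 2, the array with the higher of the clone's levels, these became 4.37 at 10 μM (adjusted p = 0.000601), 4.33 at 1 μM (adjusted p = 0.00540) and −4.0 against MCF-10F (adjusted p = 0.00468), with the remaining clone array assumed to vary like the other groups. Without replicate 1 they were smaller, at 1.82 for 10 μM (adjusted p = 0.0142), 1.78 for 1 μM (adjusted p = 0.0565) and −1.46 against MCF-10F (adjusted p = 0.0611). The 10 μM call was lost without any 1 array of MCF-10F or of either ATRA dose (adjusted p up to 0.265), with only the 4 arrays compared (adjusted p = 0.155), with signals under 16 set to 16 (adjusted p = 0.176) and after quantile normalization (adjusted p = 0.0511).

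CRY2, the paralogous cryptochrome, went the opposite way to CRY1 in these arrays and by less. Its log2 signal was 7.49 and 7.11 in trMCF clone 11, 6.61 and 6.50 at 1 μM, 6.63 and 6.76 at 10 μM, and 6.87 and 6.66 in MCF-10F. The trMCF clone 11 arrays were the highest, and did not overlap with any other group. None of its differences passed: 0.54 for trMCF clone 11 against MCF-10F (adjusted p = 0.188), −0.75 for 1 μM ATRA (adjusted p = 0.113) and −0.60 for 10 μM ATRA (adjusted p = 0.0931) against trMCF clone 11. Without trMCF clone 11 replicate 2, all of these passed, at 0.73 (adjusted p = 0.0499), −0.94 (adjusted p = 0.0292) and −0.80 (adjusted p = 0.0193). Without replicate 1 they were 0.35, −0.56 and −0.41 (adjusted p = 0.361, 0.185 and 0.207), and none passed.

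PER2 and PER3 encode period proteins, which carry the cryptochromes to CLOCK and BMAL1. PER2 had a log2 signal of 8.27 and 10.10 in trMCF clone 11, 8.14 and 8.55 at 1 μM, 8.68 and 8.96 at 10 μM, and 8.20 and 9.32 in MCF-10F. The arrays of trMCF clone 11 enclosed 4 of the 6 others, and the lowest adjusted p of PER2 in any comparison was 0.553 there and 0.384 at its second, dim probe set. The difference of trMCF clone 11 from MCF-10F was 0.42 with all arrays and −0.49 without trMCF clone 11 replicate 2. PER3 at its brightest probe set was dim, with a log2 signal of 4.75 and 4.61 in trMCF clone 11, 4.42 and 4.31 at 1 μM, 4.82 and 4.44 at 10 μM, and 4.45 and 4.40 in MCF-10F. None of its differences passed there, the value against MCF-10F being 0.26 (adjusted p = 0.403).

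The third PER3 probe set separated the clone from the other groups. It read 4.86 and 4.84 in trMCF clone 11, 3.41 and 3.10 at 1 μM, 3.10 and 3.25 at 10 μM, and 3.34 and 3.30 in MCF-10F on the log2 scale. Every value outside trMCF clone 11 was under a signal of 16, so no order is read among those groups. The fitted differences passed for trMCF clone 11 against MCF-10F (limma, adjusted p = 0.0170) and for 1 μM ATRA (adjusted p = 0.0239) and 10 μM ATRA (adjusted p = 0.00378) against trMCF clone 11, but with those groups under 16 they give only a bound. Set against a signal of 16, the level in trMCF clone 11 was at least 1.80-fold higher than in each of the other groups. The call against MCF-10F was lost without either 1 μM array or MCF-10F replicate 1 (adjusted p up to 0.0917), and each ATRA call was lost without either array of its own dose (adjusted p up to 0.333 at 1 μM and 0.0622 at 10 μM). The second PER3 probe set gave −0.42 for trMCF clone 11 against MCF-10F, the opposite sign, and did not pass. The fourth was under 16 on all arrays.

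DBP, TEF and HLF are the PAR bZIP factors, which bind D-boxes and drive rhythmic genes of detoxification and metabolism in liver and other tissues. DBP had a log2 signal at its brightest probe set of 5.76 and 5.48 in trMCF clone 11, 5.18 and 5.50 at 1 μM, 5.62 and 5.23 at 10 μM, and 5.27 and 5.15 in MCF-10F. The groups lay close together there, and the difference of trMCF clone 11 from MCF-10F was 0.41 (adjusted p = 0.293). The other DBP probe set read 6.26 and 7.03 in trMCF clone 11, 4.55 and 4.26 at 1 μM, 4.54 and 4.91 at 10 μM, and 4.28 and 4.80 in MCF-10F. Both trMCF clone 11 arrays stood above all 6 others, which overlapped among themselves. The difference was 2.10 ± 0.31 (4.29-fold, limma, adjusted p = 0.0327) for trMCF clone 11 against MCF-10F, −2.24 for 1 μM ATRA (adjusted p = 0.0421) and −1.92 ± 0.30 for 10 μM ATRA (adjusted p = 0.0174) against trMCF clone 11. The call against MCF-10F was lost without either MCF-10F array or either 1 μM array (adjusted p up to 0.145), that at 1 μM without either 1 μM array (adjusted p up to 0.420), and that at 10 μM without any 1 ATRA array (adjusted p up to 0.156).

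TEF showed its highest levels in trMCF clone 11 as well, but with the 2 arrays of the clone apart. Its log2 signal at the brightest probe set was 7.07 and 8.22 in trMCF clone 11, 6.49 and 6.45 at 1 μM, 6.40 and 6.47 at 10 μM, and 6.95 and 6.83 in MCF-10F. The ATRA arrays lay below all others at both doses. The differences were 0.76 for trMCF clone 11 against MCF-10F (adjusted p = 0.322), −1.18 for 1 μM ATRA (adjusted p = 0.164) and −1.21 for 10 μM ATRA (adjusted p = 0.0806) against trMCF clone 11, and none passed. Without trMCF clone 11 replicate 1 they were 1.33, −1.75 and −1.79 and all passed (adjusted p = 0.0339, 0.0363 and 0.00468). Without replicate 2 they were smaller, at 0.19, −0.61 and −0.64 (adjusted p = 0.450, 0.0640 and 0.0271), and the last of them passed. The other 3 TEF probe sets differed by at most 0.28 in these comparisons.

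HLF was barely detected. Its brightest probe set read 3.92 and 3.91 in trMCF clone 11, 3.94 and 3.80 at 1 μM, 4.22 and 3.87 at 10 μM, and 3.81 and 4.0 in MCF-10F on the log2 scale, and its other 2 probe sets were under 16 on all arrays. Its difference between trMCF clone 11 and MCF-10F was 0.01, with a 95% interval of −0.36 to 0.38.

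BHLHE40 and BHLHE41, the DEC factors, compete for E-boxes with CLOCK and BMAL1 and also repress genes of differentiation. BHLHE40 was bright, with a log2 signal of 11.97 and 12.04 in trMCF clone 11, 11.46 and 10.97 at 1 μM, 11.32 and 11.29 at 10 μM, and 11.84 and 11.91 in MCF-10F. The ATRA arrays lay below both trMCF clone 11 and MCF-10F, and the difference between these last was 0.13. Against trMCF clone 11, the differences were −0.79 at 1 μM (adjusted p = 0.111) and −0.70 at 10 μM (adjusted p = 0.0689), and against MCF-10F they were −0.66 and −0.57, none of which passed. The second BHLHE40 probe set read 10.62 and 8.14 in trMCF clone 11, 6.29 and 5.98 at 1 μM, 6.12 and 6.08 at 10 μM, and 6.87 and 6.82 in MCF-10F. All groups lay below trMCF clone 11 at that probe set, whose own arrays had signals of 1577 and 282. It fell by 3.28 ± 0.67 after 10 μM ATRA (limma, adjusted p = 0.0364), while −3.25 at 1 μM (adjusted p = 0.0951) and 2.54 for trMCF clone 11 against MCF-10F (adjusted p = 0.132) did not pass. The 10 μM call was lost without any 1 array of MCF-10F or of either ATRA dose (adjusted p up to 0.212, differences −4.52 to −2.04).

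BHLHE41 had its highest levels after ATRA at its brightest and second probe sets. Its log2 signal was 9.50 and 10.84 in trMCF clone 11, 11.48 and 11.69 at 1 μM, 11.62 and 11.91 at 10 μM, and 9.70 and 10.96 in MCF-10F. All 4 ATRA arrays lay above all 4 others. The differences from trMCF clone 11 were 1.42 at 1 μM (adjusted p = 0.252) and 1.60 at 10 μM (adjusted p = 0.125), those from MCF-10F were 1.26 (adjusted p = 0.536) and 1.44 (adjusted p = 0.263), and none passed. Its second probe set, at 8.29 and 8.90 in trMCF clone 11, 9.66 and 9.78 at 1 μM, 9.81 and 9.83 at 10 μM, and 7.94 and 8.68 in MCF-10F, also had the ATRA arrays above all others, while trMCF clone 11 and MCF-10F, which overlapped at both probe sets, had the opposite order of means there (0.29, against −0.16 at the brightest). There the 10 μM differences were 1.22 from trMCF clone 11 (adjusted p = 0.0520) and 1.51 from MCF-10F (adjusted p = 0.0521), on the edge of the threshold. At the third, dimmer probe set, trMCF clone 11 (5.27 and 4.68) overlapped with both ATRA doses, with differences of 0.16 at 1 μM and 0.13 at 10 μM. The fourth was under 16 on all arrays. Without trMCF clone 11 replicate 2, the 10 μM difference at the brightest probe set was 2.26 and passed (adjusted p = 0.0192), and without replicate 1 it was 0.93 and did not (adjusted p = 0.317).

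Counted over all 25 probe sets of the 10 genes, 4 were called higher in trMCF clone 11 than in MCF-10F (1.56% of all probe sets), 3 were called lower after 1 μM ATRA (0.683% of all), and 1 was called higher and 5 lower after 10 μM ATRA (3.22% and 2.98% of all). The genes with any probe set called were PER3, NR1D2 and DBP in the first 2 comparisons and PER3, CRY1, NR1D2, DBP and BHLHE40 after 10 μM ATRA. At an unadjusted p under 0.05 (limma), 7, 11 and 11 of the 25 passed in these comparisons, against 19.9%, 18.7% and 20.6% of all probe sets. Probe sets of 1 gene share its RNA and are not replicates. At 5 of the 25 the signal was under 16 on all arrays and at a further 5 on some arrays. Taking the dimmer probe sets into account was chosen after their values were seen.

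**Figure D3:**
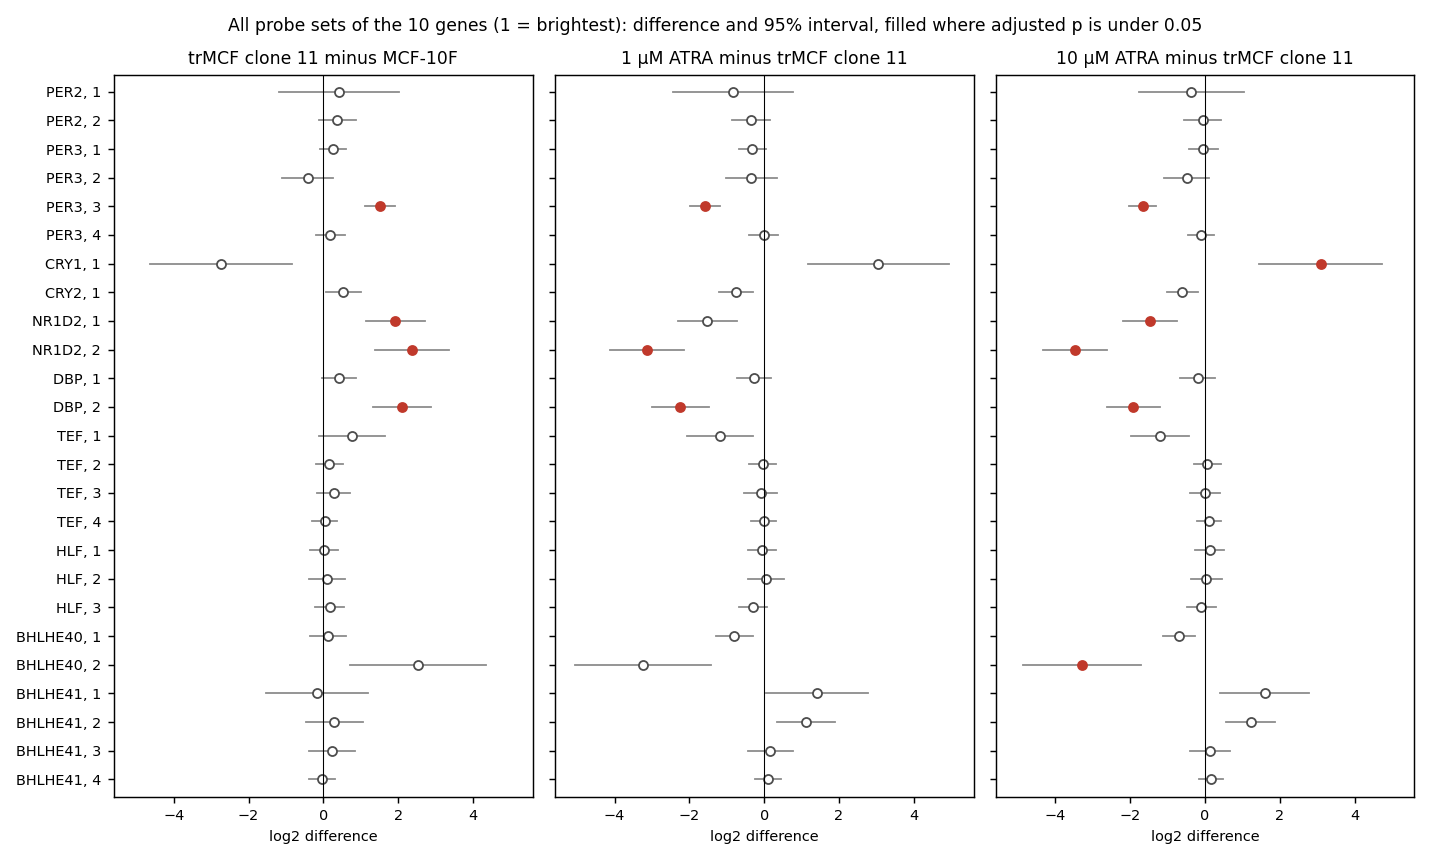
Log2 difference (horizontal axis) of every probe set of the 10 genes, numbered from the brightest, for trMCF clone 11 minus MCF-10F, 1 μM ATRA minus trMCF clone 11 and 10 μM ATRA minus trMCF clone 11. Bars are 95% intervals and filled points have an adjusted p under 0.05, which 4, 3 and 6 of the 25 probe sets reached in the 3 panels. At probe set 3 of PER3 every group but trMCF clone 11 was under a signal of 16, so its points are fitted values and not sizes of change.

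The other clock genes were read from a fixed list of 22, of which 17 had a probe set of their own. PER1 and NR1D1, the closest relatives of PER2 and NR1D2, were not read, because each of their probe sets names a second gene. In trMCF clone 11 against MCF-10F, 0 of the 17 were called higher and 1 lower, after 1 μM ATRA 0 were called, and after 10 μM ATRA 2 rose and 2 fell. Over all probe sets the shares called higher and lower were 1.56% and 2%, 0.866% and 0.683%, and 3.22% and 2.98% in these comparisons. At an unadjusted p under 0.05, 7, 8 and 8 of the 17 passed, against 19.9%, 18.7% and 20.6% of all probe sets. The median differences of the 17 genes were 0.02, −0.05 and −0.09, against 0.06, −0.05 and −0.02 over all probe sets.

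Of the activators, CLOCK had a log2 signal of 9.26 and 10.32 in trMCF clone 11, 10.38 and 10.40 at 1 μM, 10.40 and 10.45 at 10 μM, and 10.81 and 10.68 in MCF-10F, with no call (−0.95 for trMCF clone 11 against MCF-10F, adjusted p = 0.195). BMAL1, its partner and a target of REV-ERB repression, read 9.82 and 9.71 in trMCF clone 11, 9.74 and 9.70 at 1 μM, 9.46 and 9.51 at 10 μM, and 9.78 and 9.71 in MCF-10F. Its differences were 0.02, −0.05 and −0.28 in the 3 comparisons, none of which passed. BMAL2, a paralog of BMAL1, was lower by 1.16 in trMCF clone 11 than in MCF-10F (limma, adjusted p = 0.0479), a call lost without every single array but trMCF clone 11 replicate 2 (adjusted p up to 0.166). NPAS2, a paralog of CLOCK, read 7.90 and 7.68 in trMCF clone 11, 9.19 and 9.15 at 1 μM, 9.26 and 9.22 at 10 μM, and 8.05 and 9.16 in MCF-10F. It rose by 1.46 after 10 μM ATRA (limma, adjusted p = 0.0458).

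Among the repressors and partners, CIART, which represses CLOCK and BMAL1, fell by 0.96 after 10 μM ATRA (limma, adjusted p = 0.0166). CSNK1D, the kinase that marks PER proteins for turnover, fell by 0.92 (adjusted p = 0.0316), and TIMELESS, a replication fork protein that also binds clock proteins, rose by 1.25 (adjusted p = 0.0389). NFIL3, which represses at the same D-boxes that DBP, TEF and HLF activate, read 12.12 and 10.25 in trMCF clone 11, 9.02 and 8.76 at 1 μM, 9.10 and 8.75 at 10 μM, and 9.84 and 9.78 in MCF-10F. All other arrays lay below those of trMCF clone 11, and its differences were 1.38 against MCF-10F (adjusted p = 0.254), −2.30 at 1 μM (adjusted p = 0.108) and −2.26 at 10 μM (adjusted p = 0.0503), none of which passed. The 10 μM calls of NPAS2, CIART, CSNK1D and TIMELESS were all lost without any 1 ATRA array, that of NPAS2 also without either trMCF clone 11 array, and those of CSNK1D and TIMELESS also without trMCF clone 11 replicate 1 (adjusted p up to 0.250, 0.149, 0.212 and 0.234).

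Genes known to cycle with the clock in many tissues were described from a list of 11, all of them measured. In trMCF clone 11 against MCF-10F, 1 was called higher and 0 lower, after 1 μM ATRA 1 fell, and after 10 μM ATRA 3 fell and 0 rose, against the same shares of all probe sets (1.56% higher and 2% lower, 0.683% lower, and 2.98% lower and 3.22% higher). The gene called in all 3 was TSC22D3, encoding the glucocorticoid-induced leucine zipper, at 13.15 and 12.93 in trMCF clone 11, 10.38 and 10.18 at 1 μM, 10.08 and 10.58 at 10 μM, and 10.58 and 11.19 in MCF-10F on the log2 scale. Both trMCF clone 11 arrays lay above all others, by 2.15 against MCF-10F (limma, adjusted p = 0.0182), and the differences after ATRA were −2.76 at 1 μM (adjusted p = 0.0180) and −2.71 at 10 μM (adjusted p = 0.00417). The first call was lost without MCF-10F replicate 1 or either 1 μM array (adjusted p up to 0.104), the second without either 1 μM array (adjusted p up to 0.324) and the third without 10 μM replicate 1 (adjusted p = 0.0574). KLF9, another glucocorticoid-responsive factor, fell by 1.97 after 10 μM ATRA (adjusted p = 0.0353), and the cell-cycle kinase WEE1 fell by 0.85 (adjusted p = 0.0381). Both of these calls were lost without any 1 ATRA array or trMCF clone 11 replicate 1 (adjusted p up to 0.208 and 0.217). FKBP5, also induced by glucocorticoids, was not called in any of the 3. It was named outside the naming rule given below, and a part of glucocorticoids in these values was not tested.

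**Figure D4:**
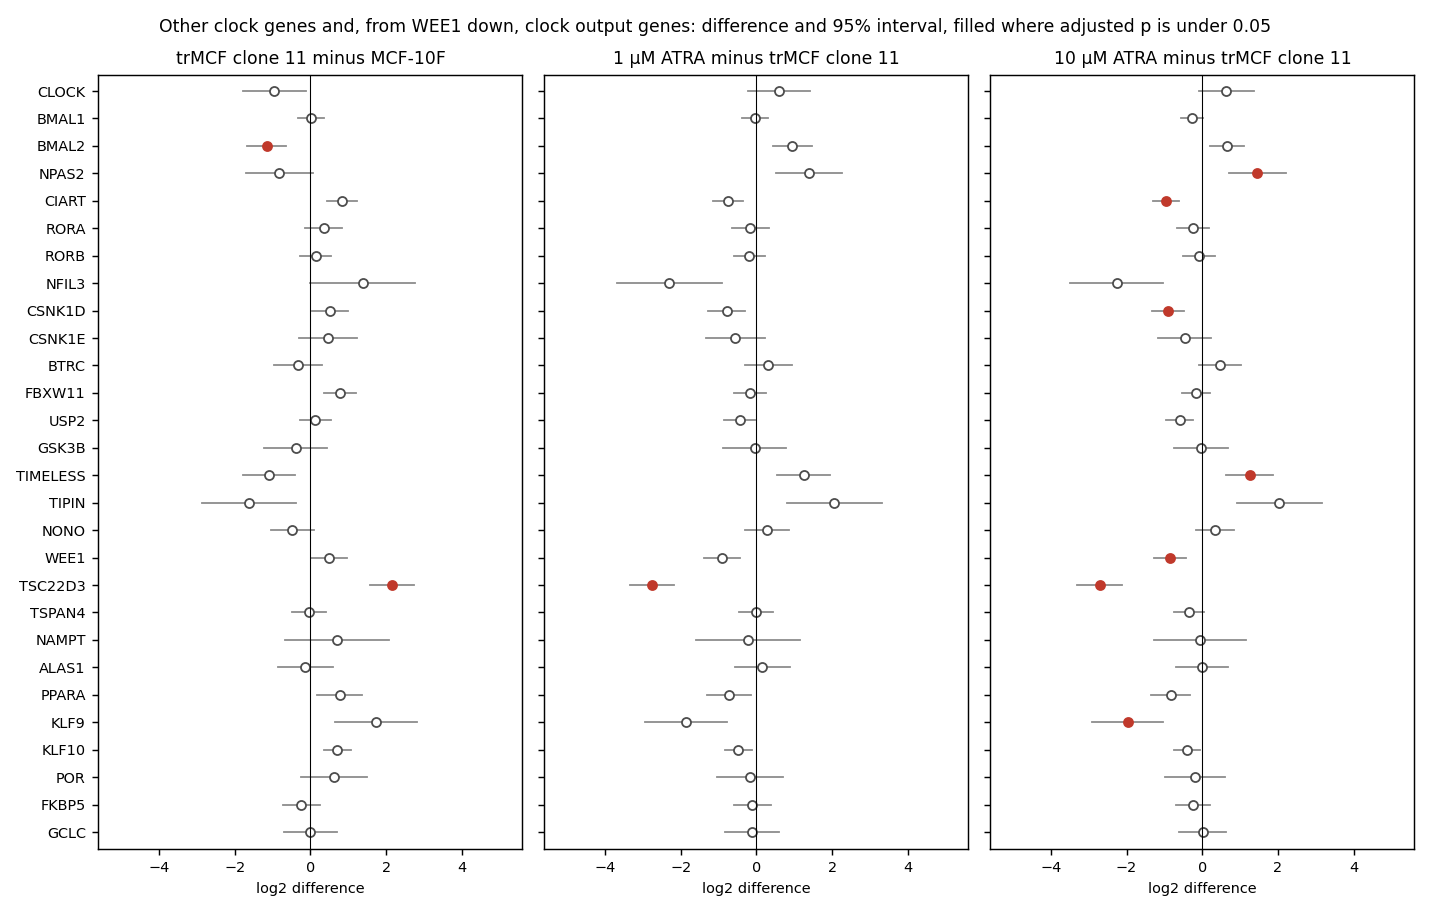
Log2 difference (horizontal axis) of the 17 other clock genes and, from WEE1 down, the 11 clock output genes at their brightest probe sets, for trMCF clone 11 minus MCF-10F, 1 μM ATRA minus trMCF clone 11 and 10 μM ATRA minus trMCF clone 11. Bars are 95% intervals and filled points have an adjusted p under 0.05. TSC22D3 is filled in all 3 panels, at 2.15, −2.76 and −2.71.

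The genes whose pattern lay closest to that of NR1D2, which had the smallest adjusted p of the members in trMCF clone 11 against MCF-10F when each was read at its brightest probe set, were found among 11155 genes with a mean log2 level of at least 6, by the root mean square difference of mean-centred log2 levels over the 8 arrays. They were PHF13 at 0.112, ZNRF1 at 0.153, EPB41L4A-AS1 at 0.186, SOX9-AS1 at 0.200 and MAPT at 0.201, in log2 units. PHF13, a chromatin reader that binds methylated histone tails, had a log2 signal of 10.93 and 9.77 in trMCF clone 11, 9.03 and 8.95 at 1 μM, 9.10 and 8.89 at 10 μM, and 8.39 and 8.79 in MCF-10F. Like NR1D2, PHF13 stood higher in replicate 1 than in replicate 2 of trMCF clone 11. The points share arrays and scaling, so the likeness is a description of these 8 arrays.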

How the data were processed

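Signals of 8 arrays were taken as deposited, as linear intensities per probe set already summarised and scaled by the authors. Both MAS 5.0 (globally scaled) and GeneSpring's Iterative Plier 16 are named in the methods, without saying which made the values. Log2 was taken with no further scaling, and 62 control probe sets were left out. Of the 54613 probe sets, 41091 name 1 gene, 1801 several and 11721 none in the platform annotation. Differences came from limma 3.58.1 (R 4.3.3) over all probe sets, with group means, moderated variances and Benjamini-Hochberg adjustment: a fit of 6 arrays without 10 μM ATRA for comparisons among the other groups, and a fit of all 8 arrays for those with 10 μM. The fit was tested on simulated data. No detection calls were used, and a signal of 16 served as a mark of dim probe sets. With 2 arrays per group, array number limits the precision.

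The members and gene lists were chosen with earlier results of these data known. Named were all members, the CLOCK-family activators and NFIL3 whatever their values, every other clock or clock output gene called in any comparison, and the 5 genes most like the member with the smallest adjusted p against MCF-10F. FKBP5 and the cell type markers named above fall outside this rule. Alternatives were the arrays in the fit, quantile normalization, a filter and a floor on dim signals, the variance prior, a replicate block, the mean over probe sets, the study's fold and unadjusted p rule, and each array left out. Replicate numbers were not treated as pairs in the main fits, since the labels mark no shared day or culture. Promoters came from RefSeq tables (GRCh38.p14).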

Additional observations from a re-analysis of the deposited data

How the results depend on the processing

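The number of the 10 genes called was small and moved with the setting. For trMCF clone 11 against MCF-10F, where 1 gene was called, 0 were called with only the 4 arrays compared, with a floor of 16 or with the replicate block, 2 with the mean of all probe sets of a gene or with a fold of 2 and unadjusted p, and 3 with any probe set of the gene, an alternative chosen after seeing the data. With 1 array left out the number was 0 to 3. For 1 μM ATRA against trMCF clone 11, with 0 called, it was 2 with all 8 arrays in the fit (NR1D2 and BHLHE40) or the mean of probe sets, 4 by fold and unadjusted p, 3 with any probe set, and 0 to 3 with 1 array left out. For 10 μM ATRA against trMCF clone 11, with 2 called, it was 0 with only the 4 arrays or the floor, 1 after quantile normalization, 5 with the mean of probe sets or any probe set, 4 by fold and unadjusted p, and 0 to 5 with 1 array left out. For 10 μM ATRA against MCF-10F, 1 gene passed by fold and unadjusted p. Among the 17 other clock genes, trMCF clone 11 against MCF-10F gave 1 call, 4 with all 8 arrays, 0 with only the 4 arrays, quantile normalization, the floor, the trend and robust prior or the replicate block, 2 with the mean of probe sets, 3 by fold and unadjusted p, and 0 to 9 with 1 array left out. For 1 μM ATRA they gave 0 calls, 4 with all 8 arrays or by fold and unadjusted p, 1 with only the 4 arrays and 0 to 5 with 1 array left out. For 10 μM ATRA they gave 4 calls, 1 with only the 4 arrays or the floor, and 0 to 7 with 1 array left out. For 10 μM ATRA against MCF-10F they gave 0 calls, 1 with the mean of probe sets and 0 to 2 with 1 array left out. The cause of these changes was not tested beyond the fewer arrays in the smaller fits.

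Over the single members, 858 alternative values were computed, of which 774 kept their direction and side of the threshold, 25 lost the call, 20 gained one, 27 changed sign by less than 1 SE of the difference and 12 changed sign by more. All 39 of these were uncalled both ways, and the 12 are as follows. With 1 array left out, PER2 ranged over −0.49 to 1.34 in trMCF clone 11 against MCF-10F, −1.76 to 0.078 in 1 μM ATRA and −1.28 to 0.55 in 10 μM ATRA against trMCF clone 11, the sign turning without trMCF clone 11 replicate 2. BHLHE41 ranged over −0.83 to 0.51 in trMCF clone 11 against MCF-10F and turned without MCF-10F replicate 2 (0.47) or trMCF clone 11 replicate 1. PER3 ranged over −0.24 to 0.14 in 10 μM ATRA against trMCF clone 11 and turned without 10 μM replicate 2, and BHLHE40 over −0.15 to 0.34 in 10 μM against 1 μM ATRA and turned without 1 μM replicate 2. With the mean of probe sets, NR1D2 turned to −0.17 in 1 μM and −0.33 in 10 μM ATRA against MCF-10F, PER3 to −0.19 and TEF to 0.048 in 10 μM ATRA against MCF-10F, and PER3 to −0.015 in 10 μM against 1 μM ATRA.

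Replicate numbers marked no shared day or culture in the labels, and the replicate differences of the groups correlated at −0.056 to 0.351. The highest value was between the 1 μM and 10 μM ATRA groups, and whether some groups share a pairing was not tested. With the replicate block, NR1D2 in trMCF clone 11 against MCF-10F had an adjusted p of 0.0511 and CRY1 after 10 μM ATRA one of 0.0589, both no longer called, and BHLHE41 after 10 μM ATRA was called at 1.60 (limma, adjusted p = 0.0452). With the dimmest 33% of probe sets left out, PER3 and HLF had no value. A fit without 1 array of a group assumes that the lone array varies like the other groups. Signals near or under 16 (all HLF probe sets, most of PER3) give little precision on a fold.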
